A study of Mus musculus with 16 samples.

Results

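MHC class II presentation was read in sorted mouse endothelial cells through 7 genes of the 52636 in the deposited count table: the transactivator Ciita, the invariant chain Cd74, the class II chains H2-Aa, H2-Ab1 and H2-Eb1, and the peptide-loading chains H2-DMa and H2-DMb1. They were chosen by name and function, and the leukocyte gene Ptprc (which encodes CD45) was read beside them. The 16 poly(A) RNA libraries came from liver, lung and heart, 10 days after tamoxifen, from wild-type animals and from animals whose label is a double knockout of Erg and Fli1. Erg and Fli1 are ETS transcription factors of endothelium. Liver and lung had 3 control (wild-type) and 3 knockout-labelled libraries, and heart had 2 of each. According to the label texts, an antibody to VE-cadherin was injected before the tissues were digested with collagenase and dispase, and the sort kept live cells without CD45 that carried CD31 and VE-cadherin. The tamoxifen text is the same for both genotypes. The sources used here name no strain, Cre line, deleted exons or animals behind the replicates, so p-values measure the spread between these libraries, which may be technical.

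Class II molecules are pairs of an alpha and a beta chain that show peptides from engulfed proteins to CD4+ T cells. Cd74 escorts new pairs and blocks their groove until cathepsins degrade it, and H2-DM then exchanges its last fragment for a peptide. Ciita does not bind DNA itself: it is recruited by RFX, NF-Y and CREB factors that sit on the X and Y boxes of class II promoters, and its own transcription responds to interferon gamma. Dendritic cells, B cells and macrophages carry class II most strongly. Some endothelial cells, the capillary cells of lung among them, and alveolar type 2 cells of lung epithelium carry it too.

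The promoters of 2 chains are shown because they carry the X and Y boxes through which Ciita acts. Each stretch is the 130 bases before the RefSeq start (GRCm38.p6), 5′ to 3′ on the coding strand. Capitals mark GNAAC of the X box and ATTGG, the reverse complement of the Y box CCAAT.
H2-Aa, chr17:34287824-34287953, minus strand: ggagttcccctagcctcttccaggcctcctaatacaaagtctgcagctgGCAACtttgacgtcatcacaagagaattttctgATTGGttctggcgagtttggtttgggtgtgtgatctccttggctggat
H2-Eb1, chr17:34305737-34305866, plus strand: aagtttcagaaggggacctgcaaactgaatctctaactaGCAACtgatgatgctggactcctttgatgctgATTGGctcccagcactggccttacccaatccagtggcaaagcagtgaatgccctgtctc
The 2 boxes stood 28 bases apart in H2-Aa and 27 in H2-Eb1, and H2-DMb1 had them 28 apart. The longer X box pattern CCNNGNAAC, found on either strand in 12.6% of windows, had 0 matches in the windows of H2-Aa and H2-Eb1. That pattern had 1 match in the window of H2-DMb1 and 1 in 1 of the 2 windows of H2-DMa. The spaced pair (GNAAC, then 24 to 32 bases, then ATTGG) was written after these windows had been read. It was found in 0.642% of the 32851 RefSeq windows on the coding strand and in 1.28% on either strand. It was also in the windows of H2-Oa, H2-Ob and H2-Eb2 and in neither of the 2 windows of H2-DMa. Of the 7 genes, 4 had a window. The ETS core GGAA, which lies in 93.4% of all windows on either strand, had 3 matches in the window of H2-Aa, 5 in that of H2-DMb1 and 0 in that of H2-Eb1. The longer ETS motif CCGGAAG (6.91% of windows) had 1 match, in 1 of the windows of H2-DMa.

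The 5 H2 genes lie together on chromosome 17 of GRCm38 in the order H2-DMa (34119541 to 34139101, plus strand), H2-DMb1 (34153072 to 34160230, plus), H2-Ab1 (34257689 to 34269419, plus), H2-Aa (34282744 to 34287823, minus) and H2-Eb1 (34305867 to 34316674, plus). Ciita lies on chromosome 16 (10480059 to 10528418, plus) and Cd74 on chromosome 18 (60803848 to 60812652, plus). Exons of Ciita overlap Dexi, and exons of H2-DMa overlap Brd2, both on the opposite strand. Because the counting is not stated to use strand, such reads cannot be told apart, and reads of H2-DMb1 and its near copy H2-DMb2 may have been split.

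Totals ran from 30226340 to 41449054 counts per library, and levels are given in CPM, a depth-scaled count computed here on TMM-adjusted totals. Erg fell in liver (log2 −1.31, adjusted p = 1.54e-05) and lung (−0.52, adjusted p = 0.0231), while in heart it stood at log2 −0.47 (adjusted p = 0.0538). Fli1 counts rose in lung (log2 0.69, adjusted p = 0.0131) and did not pass in liver (0.38, adjusted p = 0.1) or heart (0.02, adjusted p = 0.978), so the gene-level counts of Fli1 do not show its deletion. The endothelial genes Cdh5 and Pecam1 were high in every library, and the summed CPM of 9 endothelial genes was 11142 to 14095 in the controls and 6681 to 11274 in the knockout-labelled libraries. These 9 include Erg and Fli1. In liver 4 of the 9 fell (9.87% of all genes did). In lung 3 fell and 2 rose (4.11% and 4.35% of all genes), and in heart 3 fell (9.09%).

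Class II transcripts were highest in control lung. Ciita measured 54.9, 37.7 and 37.9 CPM in control lung, 1.79, 1.97 and 1.91 CPM in control liver, and 1.97 and 1.75 CPM in control heart. Control lung thus held 22.9-fold more Ciita than control liver (log2 4.52, adjusted p = 2.79e-06), whereas liver and heart overlapped (log2 −0.03, adjusted p = 0.979). Cd74 measured 1156, 308 and 443 CPM in control lung, 76.5, 47.6 and 135 CPM in control liver, and 17.8 and 15.2 CPM in control heart. All 7 genes were higher in control lung than in control liver (24.6% of the 19646 genes tested were), by log2 2.88 (Cd74) to 4.52 (Ciita), with a median of 2.99 beside 0.05 over all genes. Against control lung, control heart was lower in 7 of 7 (16.1% of genes), by log2 −4.55 (Ciita) to −5.50 (H2-Eb1). Ptprc did not separate control lung from control liver: it was 10.1, 4.85 and 6.61 CPM in control lung and 7.72, 7.86 and 13.6 CPM in control liver (log2 −0.43, adjusted p = 0.466). In control heart Ptprc was lower, as class II was, at 1.31 and 2 CPM, without overlap with control lung (as for 30.6% of genes). Of 10 pan-leukocyte genes, 4 passed as lower in control heart than in control lung. The part of leukocytes in the heart difference was not tested.

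Markers of alveolar type 2 cells did separate control lung from control liver. All 8 were higher in control lung than in control liver (median log2 8.89), with summed levels of 1917 to 2405 CPM in control lung, 128 to 135 in control liver and 124 to 141 in control heart. In control liver and heart nearly all of the sum was 1 marker, Abca3, at means of 119.7 and 130.3 CPM. The part of these markers in the class II difference was not tested. The surfactant gene Sftpc measured 993, 1183 and 1050.1 CPM in control lung. Among the 3 control lung libraries, replicate 1 was the highest for all 7 class II genes, 3.75-fold over the lowest for Cd74 and 1.46-fold for Ciita. Sftpc spanned 1.19-fold over the same libraries, lowest in replicate 1, and Lamp3 1.24-fold, lowest in replicate 3. Ptprc was also highest in replicate 1, 2.08-fold over the lowest. Summed pan-leukocyte genes (50.2 CPM, beside 25.7 and 38.7) and B cell genes (20.3 CPM) were highest there too. Summed monocyte and macrophage genes were highest in replicate 2 (565 CPM), and dendritic cell genes (145 CPM) and T and NK cell genes (2.48 CPM) in replicate 3. Without replicate 1, the lung excess of Cd74 over liver went from log2 2.88 to 2.12 (adjusted p = 0.00648), and its difference between heart and lung from −5.27 to −4.51 (adjusted p = 0.000418).

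Per kilobase of exon, Cd74 led in control lung at 379 ± 271 CPM per kb (SD, n = 3). The chains followed at 119.8 ± 61.3 for H2-Ab1, 109.9 ± 58.5 for H2-Eb1 and 67.3 ± 32 for H2-Aa. H2-DMb1 stood at 30.3 ± 15.1, H2-DMa at 11.2 ± 6.04 and Ciita at 4.56 ± 1.04. The order is that of means, and the wide SDs, set by replicate 1, leave H2-Ab1, H2-Eb1 and H2-Aa within each other's spread.

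In control heart, 5 of 7 genes were lower than in control liver (23.9% of genes were lower): Cd74 (log2 −2.39), H2-Aa, H2-Ab1, H2-Eb1 and H2-DMa. H2-DMb1 (−1.07, adjusted p = 0.0655) and Ciita did not pass. Ptprc was lower in heart as well (log2 −2.55). The count fell to 2 of 7 without heart control 1 and to 1 of 7 without heart control 2, and leaving out liver control 3 took the call from H2-Ab1 (log2 −1.28, adjusted p = 0.0736). H2-DMb1 passed without liver control 2 (−1.34, adjusted p = 0.0254) or lung control 1 (−1.07, adjusted p = 0.0395).

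**Figure D1:**
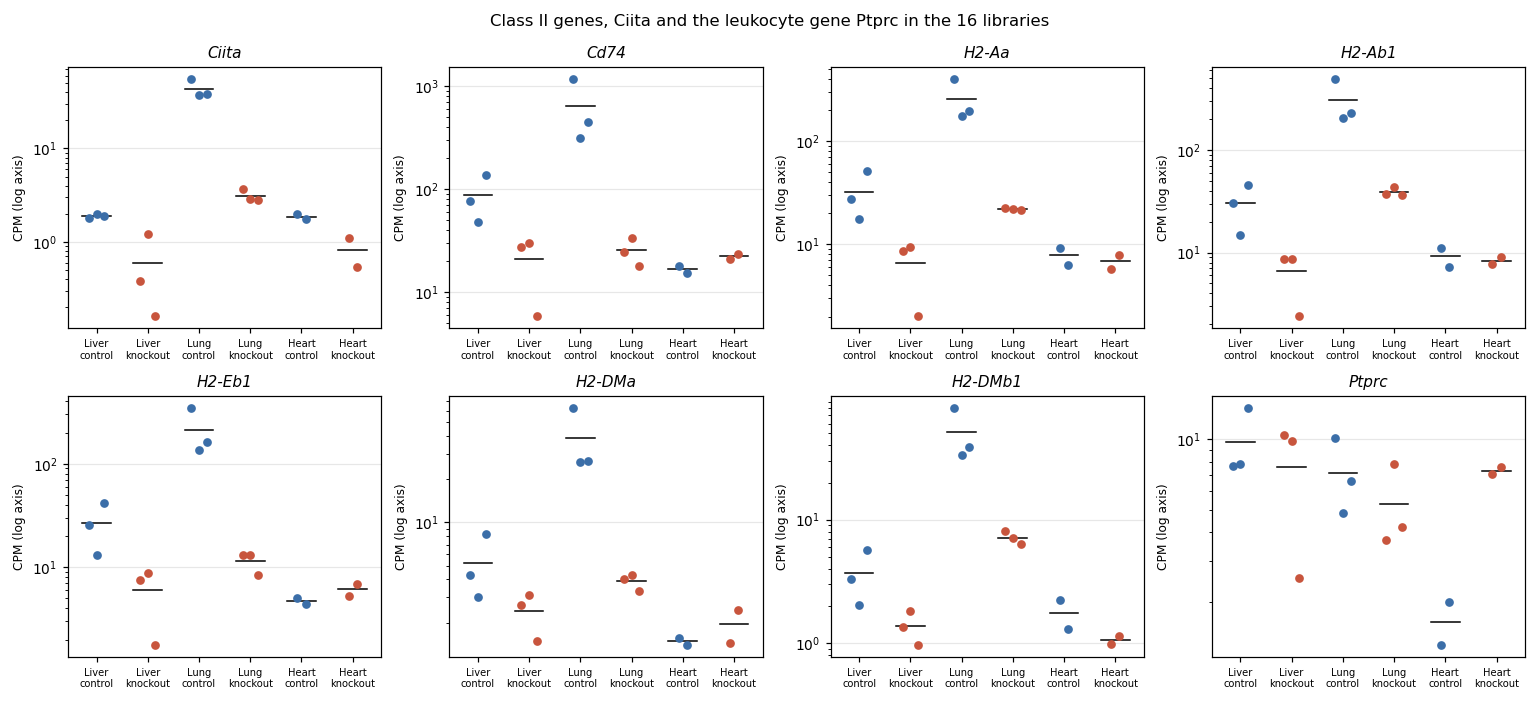
CPM on log axes for Ciita, Cd74, the 5 other class II genes and Ptprc, 1 panel each with its own axis range. Points are libraries, blue for control and red for knockout-labelled, and lines are group means. Control lung tops all 7 class II panels, Ciita at 37.7 to 54.9 CPM, but not that of Ptprc.

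In knockout-labelled lung, all 7 genes fell, and no knockout-labelled library reached any control (16.1% of genes were separated this way). Ciita, the master regulator, measured 3.64, 2.88 and 2.82 CPM there beside 54.9, 37.7 and 37.9 CPM in the controls, 13.9-fold lower (log2 −3.80, SE 0.444, adjusted p = 0.000233). Cd74 went from 1156, 308 and 443 CPM to 24.3, 33.5 and 18 CPM, 25.2-fold lower (log2 −4.65, SE 0.645, adjusted p = 0.000734). The lowest control of Cd74 was replicate 2, still far above the highest knockout-labelled library. Of the genes tested, 4.11% were lower in lung, and the median of the 7 was −3.54 beside −0.02 over all genes.

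Among the chains, H2-Eb1 (beta chain of the E molecule) had 344, 136 and 161 CPM in control libraries and 13.2, 13.1 and 8.41 CPM in knockout-labelled ones (log2 −4.21, SE 0.562, adjusted p = 0.00059). H2-Aa (alpha chain of the A molecule) had 396, 176 and 195 CPM against 22.6, 22.1 and 21.3 CPM (log2 −3.54, SE 0.514, adjusted p = 0.000969). The knockout-labelled libraries were close to one another for both genes, while control replicate 1 stood above the other controls. H2-Ab1, the partner of H2-Aa, had 489, 203 and 232 CPM against 37, 43.3 and 36.5 CPM (log2 −2.98, SE 0.480, adjusted p = 0.00177). The loading genes fell too: H2-DMa by 3.31 on the log2 scale, from 26.4 to 62.7 CPM down to 3.32 to 4.30 CPM (adjusted p = 0.000556), and H2-DMb1 by 2.84, from 33.5 to 80.1 CPM down to 6.29 to 8.06 CPM (adjusted p = 0.000731). Without control replicate 1, Cd74 stood at log2 −3.90 (adjusted p = 0.00231).

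Ptprc did not follow: it measured 10.1, 4.85 and 6.61 CPM in control lung and 3.69, 7.86 and 4.23 CPM in knockout-labelled lung, overlapping (log2 −0.45, adjusted p = 0.615). None of 10 pan-leukocyte genes passed in lung, at summed levels of 25.7 to 50.2 CPM in controls and 22.8 to 60.2 CPM in knockout-labelled libraries. None of 15 B cell genes passed either (summed 12.5 to 20.3 against 9.76 to 13.5 CPM), nor any of the 6 dendritic cell genes tested (all 8 summed, 127 to 145 against 101 to 134 CPM, nearly all Clec9a). The dendritic cell genes Flt3, Xcr1 and Cd209a stayed at or under 0.307 CPM in every lung library, and Siglech and Batf3 at or under 0.53 CPM. Itgax measured 4.29 to 7.34 CPM in controls and 1.38 to 5.89 CPM in knockout-labelled lung, overlapping. Ccr7 measured 1.27 to 2.59 CPM against 0.294 to 0.728 CPM, without overlap (as for 16.1% of genes). The Kupffer cell gene Clec4f was at 0 in all 3 lung controls. Of 16 monocyte and macrophage genes, 1 fell, Lyz2 (lysozyme, which alveolar type 2 cells also express). Their summed level went from 483 to 565 CPM down to 70.3 to 235 CPM, most of it Lyz2, at 432 to 534 CPM in controls and 44.9 to 164 CPM in knockout-labelled libraries.

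Alveolar type 2 markers fell along with class II in lung. Of the 8, 7 passed, Epcam being the exception, with a median of log2 −3.03 and summed levels of 1917 to 2405 CPM in controls and 248 to 467 CPM in knockout-labelled libraries. None of the 8 was at 0 in any lung library. Sftpc went from 993, 1183 and 1050.1 CPM to 175, 116 and 62.6 CPM (log2 −3.19, adjusted p = 0.0027), and Lamp3 from 43.7, 52.9 and 42.6 CPM to 8.57, 3.19 and 1.68 CPM (log2 −3.37, adjusted p = 0.000969). Per count of Sftpc, all 7 class II genes overlapped between the groups. Cd74 had 0.26 to 1.16 counts per Sftpc count in controls and 0.139 to 0.289 in knockout-labelled libraries, and Ciita had 0.0318 to 0.0553 against 0.0208 to 0.0451. The part of this marker change in the class II fall was not tested, and in these bulk libraries fewer cells of a type and less RNA per cell cannot be told apart. Per count of Ptprc, none of the 7 overlapped: Cd74 had 63.5 to 114 counts per Ptprc count in controls and 4.24 to 6.59 in knockout-labelled lung. Sftpc fell in these libraries and Ptprc did not pass, so both ratios restate the CPM changes. The share of all genes separated on either ratio was not computed.

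**Figure D2:**
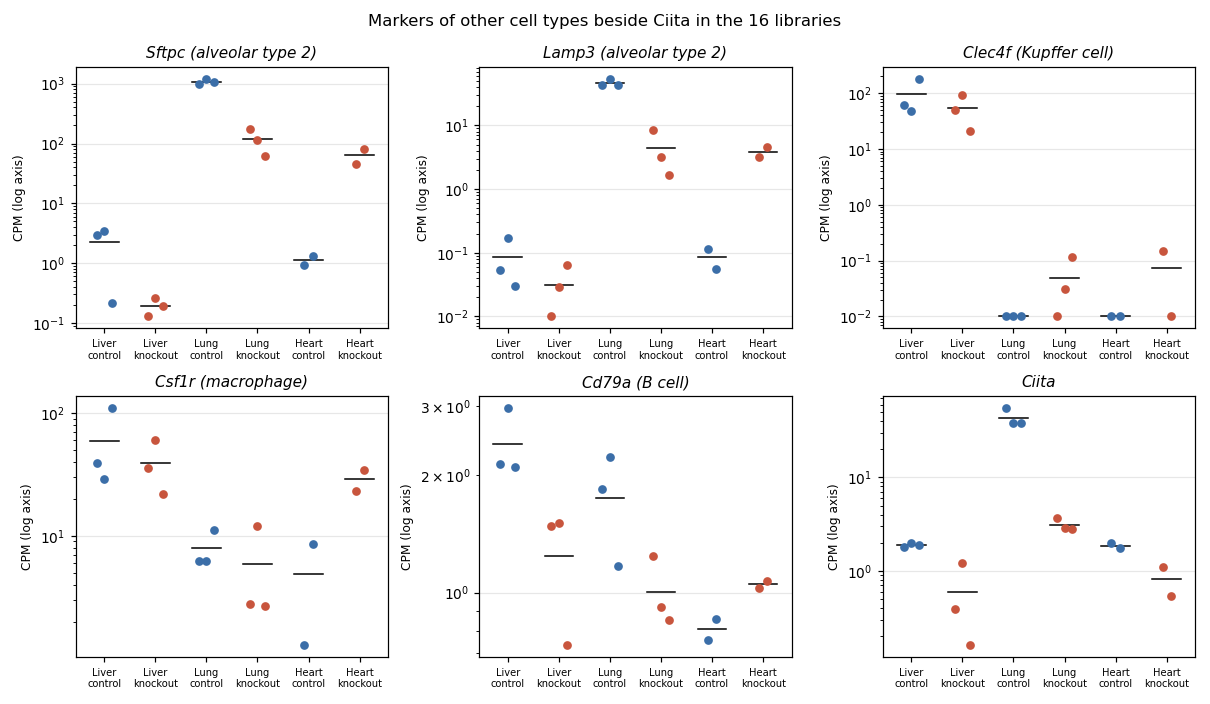
CPM on log axes for markers of other cell types and for Ciita. Points are libraries, blue for control and red for knockout-labelled, lines are group means, and libraries without a count are drawn at 0.01 CPM. Sftpc and Lamp3 drop with Ciita in lung (Sftpc from 993 to 1183 CPM down to 62.6 to 175 CPM) but rise in heart, where Ciita does not.

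In knockout-labelled liver, 6 of 7 genes fell (9.87% of genes were lower), with a median of log2 −2.04 beside 0.02 over all genes. Ciita had 1.79, 1.97 and 1.91 CPM in control liver and 0.387, 1.22 and 0.16 CPM, the last of these only 5 counts, in knockout-labelled liver (log2 −1.66, SE 0.468, adjusted p = 0.0232). Cd74 had 76.5, 47.6 and 135 CPM against 27.3, 29.9 and 5.78 CPM (log2 −2.04, SE 0.58, adjusted p = 0.0239). The groups did not overlap for either gene, as for 19.0% of all genes in this direction, and knockout-labelled replicate 3 was the lowest library for both.

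The chains fell by similar amounts. H2-Aa had 27.6, 17.6 and 51.2 CPM against 8.61, 9.4 and 2.01 CPM (log2 −2.27, SE 0.499, adjusted p = 0.00564). H2-Ab1 fell by 2.20 on the log2 scale (adjusted p = 0.0053) and H2-Eb1 by 2.16 (adjusted p = 0.0105), from 13 to 45.4 CPM over both genes in the controls down to 1.76 to 8.73 CPM. Control replicate 3 was the highest and knockout-labelled replicate 3 the lowest of the 6 libraries for these 3 genes. H2-DMb1 fell by 1.42 (adjusted p = 0.0241). H2-DMa overlapped, at 4.27, 3.03 and 8.26 CPM in controls and 2.64, 3.13 and 1.5 CPM in knockout-labelled libraries (log2 −1.09, adjusted p = 0.0849). It passed with no filter on low counts (−1.14, adjusted p = 0.0474) and by DESeq2 (−1.11, adjusted p = 0.0357).

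These liver calls rested on few libraries. Without control replicate 3 the number of genes that passed went from 6 to 2 (H2-Aa and H2-Ab1), and without knockout-labelled replicate 3 to 3, the same pair with H2-Eb1. Cd74 then stood at log2 −1.55 (adjusted p = 0.109) and −1.60 (adjusted p = 0.0505), and H2-DMb1 at −0.96 (adjusted p = 0.137) and −1.22 (adjusted p = 0.0871). H2-Eb1 lost its call without control replicate 3 (−1.67, adjusted p = 0.0543), and H2-DMb1 also without knockout-labelled replicate 1 (−1.41, adjusted p = 0.0633). Ciita lost its call without control replicate 2 or 3 (adjusted p = 0.0574 and 0.057) or knockout-labelled replicate 1 or 3 (0.0809 and 0.051). It stood at log2 −2.78 (adjusted p = 0.000363) without knockout-labelled replicate 2, its highest. With both replicates 3 left out, a setting chosen after the data were seen, H2-Aa (−1.33, adjusted p = 0.028) and H2-Ab1 (−1.39, adjusted p = 0.0424) still passed.

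The same 2 liver libraries stood apart for Kupffer cell and macrophage genes. Clec4f measured 61.8, 48.2 and 177 CPM in controls and 50.1, 91.6 and 20.6 CPM in knockout-labelled liver, with control 3 highest and knockout-labelled 3 lowest, as for Cd74. None of the 16 monocyte and macrophage genes passed in liver (median log2 −0.71, summed levels 273 to 881 CPM against 207 to 467 CPM), and none of the 10 pan-leukocyte genes did (107 to 206 against 97.1 to 139 CPM). Ptprc measured 7.72, 7.86 and 13.6 CPM in controls and 10.4, 9.8 and 2.55 CPM in knockout-labelled liver (log2 −0.35, adjusted p = 0.642). Of 15 B cell genes 1 fell, Fcrla, while their summed level was 52.5 to 71.5 CPM in controls and 9.54 to 30.7 CPM in knockout-labelled libraries.

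Taken per Clec4f count, Cd74 had 0.762 to 1.24 counts in control liver and 0.281 to 0.544 in knockout-labelled liver. It did not overlap, nor did H2-Aa, H2-Ab1 or H2-Eb1, whereas Ciita, H2-DMa and H2-DMb1 did. Per count of Csf1r, a macrophage receptor, 6 of the 7 did not overlap, Ciita being the exception. With 3 libraries a group, the smallest p an exact permutation test of such ratios can give is 0.1. Per count of Ptprc, 5 of the 7 did not overlap in liver. The share of all genes separated on these ratios was not computed, so these counts have no background to be read against. The part of B cells and of the other cell types below in the liver change was not tested. None of the 4 T and NK cell genes tested passed (all 9 summed, 2.13 to 3.03 CPM in controls and 0.128 to 1.19 CPM in knockout-labelled liver). Of 8 dendritic cell genes 1 rose, Clec9a, and 1 fell, while Flt3, Xcr1 and Cd209a were at most 0.322 CPM in every liver library. Of 8 alveolar type 2 markers 3 fell, from summed levels of 128 to 135 CPM to 84.8 to 105 CPM, nearly all Abca3, with Sftpc at most 3.51 CPM and Nkx2-1 at 0 in all 3 knockout-labelled libraries.

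In knockout-labelled heart, none of the 7 genes passed by edgeR (19.3% of genes did, 9.09% lower), and none by DESeq2. At an unadjusted p under 0.05 there was 1, Ciita. Ciita measured 1.97 and 1.75 CPM in controls and 1.10 and 0.537 CPM in knockout-labelled heart, without overlap (log2 −1.18, SE 0.547, adjusted p = 0.153). Its adjusted p was 0.0319 when liver knockout-labelled replicate 2 was left out of the shared fit. Cd74 measured 17.8 and 15.2 CPM in controls and 21 and 23.1 CPM in knockout-labelled heart (log2 0.42, adjusted p = 0.722). Knockout-labelled libraries lay above the controls for Cd74 and below them for Ciita, 2 against 2. Both knockout-labelled libraries lay below both controls for 29.0% of genes in heart.

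H2-Aa, H2-Ab1 and H2-DMa overlapped between the heart groups. H2-Aa measured 9.26 and 6.37 CPM against 5.72 and 7.96 CPM (log2 −0.19, adjusted p = 0.869), and H2-Ab1 11.1 and 7.26 CPM against 7.71 and 8.96 CPM (−0.14, adjusted p = 0.907). H2-Eb1 was at log2 0.37 (adjusted p = 0.736), H2-DMa at 0.40 (adjusted p = 0.647) and H2-DMb1 at −0.73 (adjusted p = 0.343), with both knockout-labelled libraries above the controls for H2-Eb1 and below them for H2-DMb1. All of these levels were low, at most 11.1 CPM.

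Leukocyte genes rose in the same heart libraries. Ptprc measured 1.31 and 2 CPM in controls against 7.12 and 7.58 CPM (log2 2.15, SE 0.599, adjusted p = 0.0228), and all 10 pan-leukocyte genes rose (median 2.63), from summed levels of 8.71 to 18.4 CPM to 71.3 to 96.5 CPM. Of 16 monocyte and macrophage genes, 7 rose (summed 28.1 to 68.6 CPM, then 241 to 432 CPM), with Clec4f, Marco and Siglecf at 0 in both controls. None of 15 B cell genes passed (5.77 to 12.4 against 12.8 to 17.1 CPM). Alveolar type 2 markers rose as well, 6 of 8 (median log2 5.63, summed 124 to 141 CPM, then 145 to 212 CPM), although the tissue was heart: Sftpc went from 0.929 and 1.30 CPM to 46.0 and 81.8 CPM, and Nkx2-1 was at 0 in both controls. Epcam did not pass. Abca3, nearly all of the sum in the heart controls, fell from a mean of 130.3 to 65.1 CPM, so the sum understates the rise of the others. Per count of Ptprc, all 7 class II genes were lower in both knockout-labelled libraries than in both controls. Cd74 had 7.6 to 13.6 counts in controls and 2.95 to 3.05 counts in knockout-labelled heart. Because Ptprc itself rose, a gene that did not change is also lower per Ptprc count. The share of all genes separated on this ratio was not computed. The part of leukocytes and alveolar type 2 cells in the heart values was not tested.

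**Figure D3:**
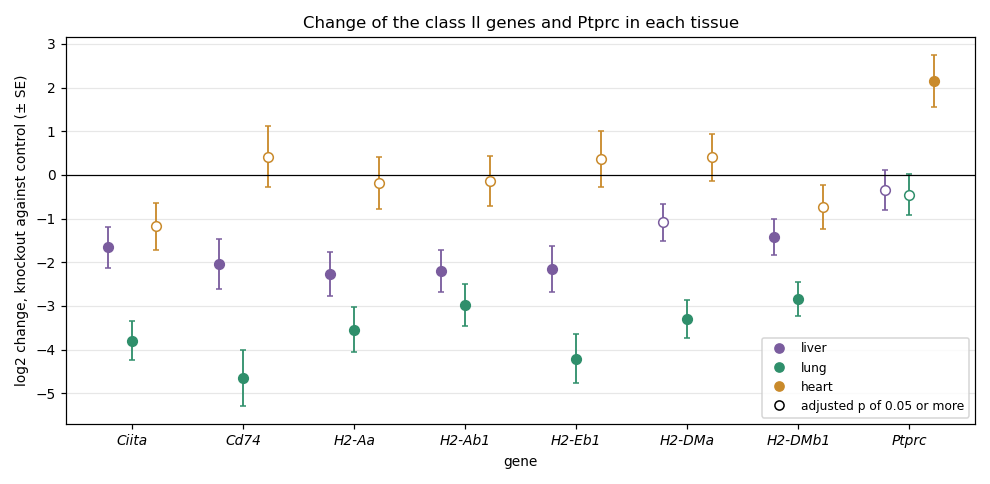
Log2 change of knockout-labelled against control libraries for the 7 genes and Ptprc in each tissue, with bars of 1 SE. Filled points passed at an adjusted p under 0.05, open points did not. All 7 are filled in lung, 6 in liver and 0 in heart, where Ptprc is filled at log2 2.15.

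The knockout changes of heart and lung were compared directly, through the difference between the 2 changes. That difference passed for 6 of 7 genes (3.83% of genes passed in this direction), with the lung change the more negative: Cd74 by log2 5.08 (adjusted p = 0.0074), H2-Eb1 by 4.58 (0.00723), H2-DMa by 3.71 (0.00701), H2-Aa by 3.35 (0.0223), H2-Ab1 by 2.84 (0.036) and Ciita by 2.62 (0.0377). H2-DMb1 stood at 2.10 (adjusted p = 0.0653). Without lung control 1, heart knockout-labelled 1 or heart control 1, 3 genes passed each time, and without heart control 2, 2 genes passed. That last setting also took the call from Cd74 (4.97, adjusted p = 0.0515). Of 24 alternatives, Cd74 passed in 23, H2-Aa in 18, H2-Ab1 in 16 and Ciita in 14, while H2-DMb1 passed in 6, among them those without liver control 2 (adjusted p = 0.0482) or 3 (0.0457). H2-Eb1 and H2-DMa passed in each of the 24.

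Lung and liver differed in the change of 1 gene, H2-DMa, which fell further in lung by log2 2.22 (that is −2.22, adjusted p = 0.0381, with 3.08% of genes passing in this direction). Cd74 (−2.61, adjusted p = 0.0727) and Ciita (−2.14, adjusted p = 0.0607) did not pass. H2-DMa passed in 10 of the 25 alternatives tried. Without liver knockout-labelled 3, Cd74 (−3.06, adjusted p = 0.0133), Ciita (−2.58, adjusted p = 0.00691) and H2-Eb1 (−2.48, adjusted p = 0.0224) passed as well, and without liver knockout-labelled 1 Ciita did (−2.37, adjusted p = 0.0499). Between heart and liver none of the 7 passed by edgeR (8.32% of genes passed in either direction), with 5 at an unadjusted p under 0.05 and 4 by DESeq2. The closest was H2-Eb1 (2.53, adjusted p = 0.0777), which passed without liver control 2 (2.87, adjusted p = 0.0477).

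After the fall in lung, the class II transcripts stood in other proportions. Per 100 counts of Cd74, H2-Ab1 had 42.3 to 65.8 counts in control lung and 129 to 203 counts in knockout-labelled lung. H2-Aa went from 34.2 to 57.2 up to 66 to 118, H2-DMb1 from 6.93 to 10.9 up to 21 to 35, and H2-DMa from 5.42 to 8.57 up to 12.8 to 18.5, all without overlap. H2-Eb1 (29.8 to 44.2, then 39 to 54.1) and Ciita (4.75 to 12.2, then 8.61 to 15.7) overlapped. In liver, H2-Ab1 kept overlapping proportions (31.3 to 39.5, then 29.1 to 41.4), and so did H2-Eb1. H2-DMa went from 5.58 to 6.36 up to 9.68 to 26 per 100 Cd74 counts in liver. In heart, Ciita had 11.1 to 11.5 counts per 100 of Cd74 in controls and 2.33 to 5.24 in knockout-labelled libraries. An exact permutation test cannot go below 0.1 with 3 against 3 libraries or 0.333 with 2 against 2. None of these separations can therefore pass a threshold of 0.05. The share of all genes separated on ratios to Cd74 was not computed.

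**Figure D4:**
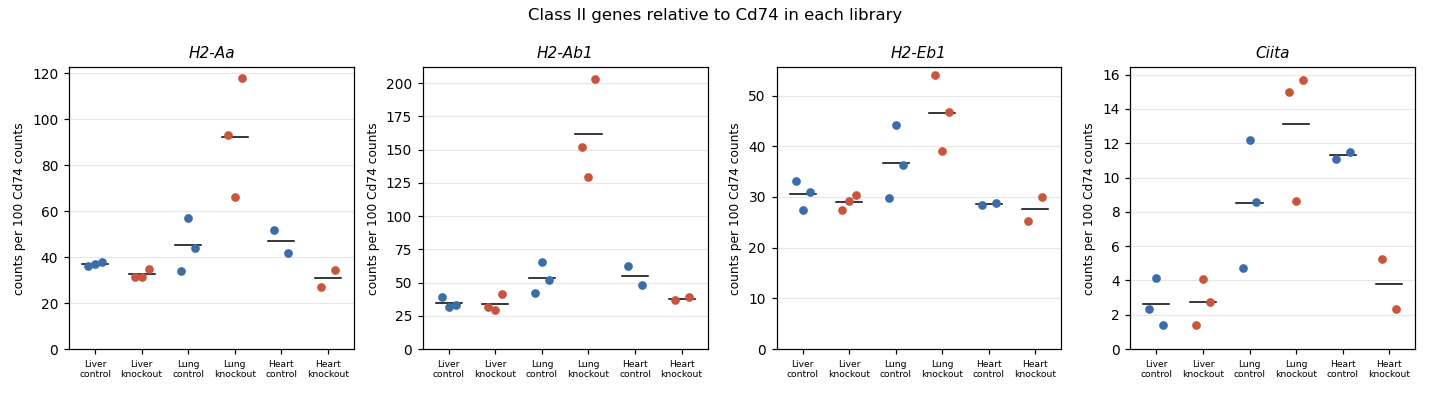
Counts of H2-Aa, H2-Ab1, H2-Eb1 and Ciita per 100 counts of Cd74 in each library, on linear axes from 0. Points are libraries, blue for control and red for knockout-labelled, and lines are group means. H2-Ab1 in knockout-labelled lung lies at 129 to 203, above all other libraries.

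No other gene of the pathway passed as lower in lung. Of 13 further class II pathway genes, 12 were tested, and in lung 1 rose and 0 fell (4.35% of all genes rose there, 9.54% in liver and 10.2% in heart). The riser was Lgmn, an endosomal protease that cuts antigen and Cd74, at 99.3, 69.9 and 91.1 CPM in controls and 336, 301 and 422 CPM in knockout-labelled libraries (log2 2.02, adjusted p = 6.4e-05). In liver 2 fell, H2-Ob (a chain of DO, which restrains H2-DM; −1.91, adjusted p = 0.0106) and the cathepsin Ctsl (−0.80, adjusted p = 0.0341). In heart 5 rose and 1 fell: Lgmn (3.36, adjusted p = 5.91e-06), Ctss, the protease that trims Cd74 (3.75, adjusted p = 0.00293), March1, which drives class II off the surface (3.75, adjusted p = 0.00196), Ifi30 and Ctsb rose, and H2-Ob fell (−2.19, adjusted p = 0.0154). Their medians were −0.14 in lung, −0.64 in liver and 0.54 in heart. Leukocyte genes moved with these heart rises (above). In lung, H2-Ob measured 3.05 to 7.29 CPM in controls and 0.853 to 2.45 CPM in knockout-labelled libraries. H2-DMb2 measured 0.499 to 0.892 CPM against 0.147 to 0.338 CPM. Both were lower without overlap (as for 16.1% of genes), and neither passed. H2-Oa and H2-Eb2, at most 0.363 CPM in lung, overlapped. H2-Ea, whose entry in the table is H2-Ea-ps, had 0 counts in all libraries.

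Of 10 factors that act at class II promoters, none passed in lung by edgeR, where Rfx5, which binds the X box, measured 14.3, 13.2 and 13.2 CPM in controls and 13.7, 13.8 and 13.3 CPM in knockout-labelled libraries (adjusted p = 0.999). In liver 2 fell, Rfx5, from 23.9, 26.1 and 20.6 CPM to 13.7, 13.3 and 10.1 CPM (log2 −0.93, adjusted p = 0.00117), and Kat2b (−0.54, adjusted p = 0.0066). In heart Creb1 fell (−0.62, adjusted p = 0.000763). Their medians were −0.06, −0.11 and −0.27 in lung, liver and heart. Over all genes, 8.46% passed in lung in either direction, and 9.87% were lower in liver and 9.09% in heart. These counts are therefore not read as particular to the factors.

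Of 10 genes on the route from interferon gamma to Ciita, 1 rose in lung, Prdm1, which encodes Blimp-1, a repressor of Ciita. It measured 17.3, 38.1 and 34.7 CPM in control lung and 69.4, 61.3 and 73.4 CPM in knockout-labelled lung (log2 1.18, adjusted p = 0.0252). Irf2 fell in liver (−0.42, adjusted p = 0.0078) and Usf1 in heart (−0.58, adjusted p = 0.0162). The medians were −0.05, −0.08 and −0.13 in lung, liver and heart. Over all genes, 4.35% were higher in lung, 9.87% lower in liver and 9.09% lower in heart. These calls are therefore not read as particular to this route.

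Of 8 ligands that steer T cells beside class II, 6 were tested. Cd274, which encodes the inhibitory ligand PD-L1, fell in heart from 131 and 108 CPM to 27.5 and 32 CPM (log2 −2, adjusted p = 0.000148) and in lung (53.8, 53.9 and 39 CPM in controls, 25.1, 23.5 and 28.9 CPM in knockout-labelled libraries, log2 −0.92, adjusted p = 0.00952). Cd40 rose in liver (1.19, adjusted p = 0.00057) and Cd276 in heart (1.54, adjusted p = 0.0223).

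Across the 16 libraries, the 7 genes followed one another with Pearson r of 0.868 to 0.989 (log2 CPM), a description of libraries that share tissues and sorts. Among 10780 other genes ranked for each, Ciita was nearest to Mknk1 (r = 0.940), Parvb (0.939), Plekha2 (0.937), Riox1 (0.937) and Rnf144a (0.926). Cd74 was nearest to Lxn (0.935), Phf6 (0.917) and Tmem109 (0.899), then Pitpnc1 and Nudt7. Lxn also ranked first for H2-Aa (0.955) and H2-Eb1 (0.950), and Riox1 first for H2-Ab1 (0.948) and H2-DMb1 (0.964). H2-DMa was nearest to Nudt7 (0.942). With Sftpc, r was 0.564 for Cd74 and 0.766 for Ciita, and with Ptprc it was 0.487 and 0.119.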

How the data were processed

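Raw counts per gene were used as deposited by the authors, 1 column for each of 16 libraries. Per the submitters' processing notes, FastQC 0.11.5 and STAR 2.7.6a were used with GRCm38. The sources used here name neither the counting program and its strand setting nor the libraries made with the stranded TruSeq kit. Of 52636 genes, filterByExpr (minimum count 10, minimum total 15, 6 groups) kept 19646, all 7 class II genes among them. edgeR 4.0.16 (R 4.3.3, limma 3.58.1) was fitted once over all libraries with TMM factors (0.916 to 1.07) and a mean per group. Quasi-likelihood tests were adjusted by Benjamini-Hochberg over the tested genes of each comparison, at a threshold of 0.05. The standard error is the size of the log2 change over the square root of F.

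The fit was tested on simulated data. Positions and exon lengths are from GENCODE M21, promoters from RefSeq, searched over 250 bases before the start. The genes and lists were chosen with earlier results of these data known. Named genes were the 7, Ptprc, Erg and Fli1, up to 4 genes per other list by smallest adjusted p or, for markers of other cells, highest mean CPM, and 5 nearest genes by r (log2 CPM, prior count 2) with a group mean of at least 10 CPM. Markers at 0 or near it, Fcrla, Epcam, Abca3, Csf1r and Rfx5 in lung were named after their values were seen. A result for 1 of the list genes is not reported here. DESeq2 1.42.0, size factors, other filters, fits and left-out libraries were alternatives.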

Additional observations from a re-analysis of the deposited data

Results flagged for a closer look

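The direct comparison of knockout changes between tissues passed for 7 results. Between heart and lung, the change was less negative in heart by log2 5.08 for Cd74, 4.58 for H2-Eb1, 3.71 for H2-DMa, 3.35 for H2-Aa, 2.84 for H2-Ab1 and 2.62 for Ciita. Heart had 2 libraries a group, and its leukocyte and alveolar type 2 markers rose while the latter fell in lung, as given above. Between lung and liver, the change of H2-DMa was more negative in lung (−2.22). Its call was lost without any 1 of liver control 1 or 2, liver knockout-labelled 1 or 2, the 3 knockout-labelled lung libraries, lung control 1 (−1.68, adjusted p = 0.1) or either heart control.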

How the results depend on the processing

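Of 25 alternatives (size factors by DESeq2's method, no filter on low counts, DESeq2, separate fits of the groups compared, replicate blocks by title or description number, 16 left-out libraries and 3 chosen after the data were seen), all 7 genes passed in each that gave a value for lung knockout, control lung against liver and control heart against lung. The liver knockout count of 6 was 7 with no filter and by DESeq2, 2 in a separate fit, 2 to 6 with 1 library left out, and 2 with liver control 3 and knockout-labelled 3 both left out. The heart knockout count of 0 was 0 to 1 with 1 library left out, and the count of 5 for control heart against liver 1 to 6. For the knockout change in lung against liver, the count of 1 was 3 with no filter, 4 by DESeq2, 0 in a separate fit, 0 to 4 with 1 library left out, 0 without libraries numbered 2 in their descriptions, 6 without both liver replicates 3 and 0 without heart. For heart against liver, the count of 0 was 3 with no filter, 4 by DESeq2 and 0 to 1 with 1 library left out. For heart against lung, the count of 6 was 2 to 7 with 1 library left out. The cause of these shifts was not tested. With the replicate number as a block (title or description), the lung against liver count was 0, and Ciita in heart against lung lost its call under the description number (2.44, adjusted p = 0.0548). Same-numbered knockout and control libraries correlated at −0.0510 to 0.240 in liver, −0.0797 to 0.0328 in lung and 0.0465 in heart. Over all groups, 10 of 35 pairs with the same description number were over 0.1 (highest 0.240), against 2 of 71 pairs with different numbers, at most a hint from the data that the labels do not explain. These correlations are of deviations from the group mean, which cancel within a group. A positive value for 1 pair thus pushes others down, and with 2 heart libraries the values mirror each other (0.133 and −0.133 for liver control 1). The counts are therefore not independent, and their contrast was not tested. Directions turned for uncalled values: in heart knockout with 1 library left out, H2-Aa ran from −0.45 to 0.12 (0.05 without knockout-labelled 1, 0.12 without control 1), H2-Ab1 from −0.42 to 0.21 (without control 1) and H2-DMa from −0.03 (without knockout-labelled 2, and also without libraries numbered 2) to 0.76. Ciita in control heart against liver was 0.02 under the block by description number, 0.02 without liver control 2 and 0.06 without heart control 2, and its knockout change in heart against liver ran from −0.11 (without heart knockout-labelled 1) to 1.60 with 1 library left out, and up to 2.04 without libraries numbered 2. Where a heart group keeps 1 library, that library is assumed to vary like the other groups.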
